A study of Homo sapiens with 4 samples.

Results

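Counts listed under 10 features at 5 loci that hold chromatin genes were followed in RNA-sequencing counts from C4-2 cells, out of 59385 features in the deposited table. Each locus has a gene on either DNA strand: TBL1XR1 with TBL1XR1-AS1, BCL7C with MIR762HG, H1-10 with H1-10-AS1, MORF4L2 with MORF4L2-AS1, and NOC2L with SAMD11. The gene given before the word with is called the left-hand gene below. The members were taken by name, and several of the noncoding ones were picked because an earlier fit of these data had shown them to differ between the groups. Differences between BHB and control are therefore given for all 10 members as a description, without a test.

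C4-2 is a castration-resistant prostate cancer cell line derived from LNCaP. The cells were grown in RPMI with serum and then kept for 3 days in RPMI alone (control, 2 libraries) or in RPMI with 50 mM of the ketone body β-hydroxybutyrate (BHB, 2 libraries). The study's title links ketones to EZH2, and all values come from this 1 line. The labels do not say whether the replicates were separate cultures, so their spread may be technical. In bulk RNA, fewer cells that make an RNA and less RNA per cell cannot be told apart.

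Chromatin regulators set how DNA is packed and read. Corepressor complexes bring histone deacetylases to nuclear receptors, SWI/SNF complexes move nucleosomes, linker histones hold the DNA between nucleosomes, and the MRG proteins bridge acetyltransferase and deacetylase complexes. BHB is known as an inhibitor of class I histone deacetylases in other cells. A library kit that keeps the strand should assign a read at such a locus to 1 of the opposed genes. The labels name a stranded kit, but the strand setting of the counting is not given in the sources used here. Which strand's RNA gave the counts listed under a name is therefore not known, and it was not tested. Every value below is a count listed under that name. What a gene does is given as background to the name only.

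Depth was low, with 2233711 to 2565080 counts per library. All 10 luminal prostate markers had counts, summing to 10569 to 13206 per library. Basal markers summed to 0 to 4 counts, fibroblast markers to 2 to 12, endothelial markers to 0 to 12 and leukocyte markers to 0. KRT5, KRT15, TP63, COL1A2, COL3A1, DCN, LUM, CDH5, KDR, TEK, PTPRC, CD3E, CD14 and LYZ were at 0 in every library. The control libraries differed from each other in coding genes with no gene on the other strand. These held 8.58% of the counts of control replicate 1 and 4.65% of control replicate 2, against 6.68% and 7.18% of BHB replicates 1 and 2. By contrast, noncoding features with exons opposite a coding gene held 10.5% to 11.6% in all 4 libraries.

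The start regions of the members are shown first, because the position of the opposed starts differs among the 5 loci. Each is a RefSeq window (GRCh38.p14) of 250 bases before a start and 50 after, written 5′ to 3′ on the gene's own strand. Capitals mark matches, on either strand, to the TATA box TATAAA, the CCAAT box CCAAT, the GC box GGGCGG, the ETS core CCGGAAG, the AP-1 core TGACTCA and the E-box CACGTG. These motifs were chosen with the sequences in view. No base was shared by matches to different motifs. H1-10 (chr3:129316237-129316536, minus strand) is shown because the starts of both genes fall in 1 window. TBL1XR1-AS1 (chr3:177037155-177037454, plus strand) and MIR762HG (chr16:30875210-30875509, plus strand) are shown because they lie at opposite ends of the range of differences with BHB. BCL7C (chr16:30894028-30894327, minus strand) is shown as the partner of MIR762HG.
H1-10: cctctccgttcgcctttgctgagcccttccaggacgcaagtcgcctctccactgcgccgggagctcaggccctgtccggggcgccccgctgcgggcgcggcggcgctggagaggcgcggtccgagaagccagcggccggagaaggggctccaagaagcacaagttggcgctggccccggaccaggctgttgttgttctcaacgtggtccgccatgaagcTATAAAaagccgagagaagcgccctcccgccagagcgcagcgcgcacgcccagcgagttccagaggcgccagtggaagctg
TBL1XR1-AS1: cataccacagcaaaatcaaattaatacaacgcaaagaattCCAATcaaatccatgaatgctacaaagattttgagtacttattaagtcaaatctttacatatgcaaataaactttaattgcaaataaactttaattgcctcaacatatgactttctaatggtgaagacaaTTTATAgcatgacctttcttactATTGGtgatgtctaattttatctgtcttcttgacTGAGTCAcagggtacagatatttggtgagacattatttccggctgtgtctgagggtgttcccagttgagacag
MIR762HG: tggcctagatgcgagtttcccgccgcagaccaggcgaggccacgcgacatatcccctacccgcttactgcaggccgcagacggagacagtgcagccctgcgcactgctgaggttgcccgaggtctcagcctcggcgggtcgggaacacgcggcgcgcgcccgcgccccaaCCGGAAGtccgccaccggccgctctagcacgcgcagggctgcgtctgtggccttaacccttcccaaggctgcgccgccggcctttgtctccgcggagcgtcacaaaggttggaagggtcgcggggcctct
BCL7C: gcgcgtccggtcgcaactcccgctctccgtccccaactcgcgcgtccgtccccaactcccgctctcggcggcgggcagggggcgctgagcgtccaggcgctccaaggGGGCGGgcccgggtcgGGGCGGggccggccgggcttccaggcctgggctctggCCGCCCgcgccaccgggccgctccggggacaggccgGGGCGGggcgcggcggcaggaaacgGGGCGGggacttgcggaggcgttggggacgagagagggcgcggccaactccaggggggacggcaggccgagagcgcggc

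The window of H1-10 held TATAAA, beginning 31 bases before the start. This motif was in 11.5% of all 35116 RefSeq windows of this length. The RefSeq start of H1-10-AS1 lies at base 266 of the same window, 15 bases downstream of the H1-10 start and on the other strand. The window of TBL1XR1-AS1 stood apart in base composition. It was 33.7% G and C with 2 CpG sites, and only 3.13% of all windows had a lower content, against a median of 58.7%. It held 1 match to TATAAA, 2 to CCAAT (34.6% of windows) and 1 to TGACTCA (4.95%).

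The other windows were rich in G and C. MIR762HG had 69.7% with 36 CpG sites and 1 match to CCGGAAG, found in 10.3% of windows. BCL7C had 80.3% with 45 CpG sites, higher than 97.7% of windows, and 5 matches to GGGCGG, found in 45% of windows. NOC2L had 76.3%, with 5 matches to GGGCGG and 1 to CCGGAAG, and SAMD11 had 75% with no match. The 2 windows of TBL1XR1 had 65.3% and 75%, with 3 and 4 matches to GGGCGG and 1 to TATAAA in the former. CACGTG, in 7.26% of all windows, was in none of these 8. Windows for 7 of the 10 members were matched by name.

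The loci fall into 3 arrangements in GENCODE release 29 (GRCh38). TBL1XR1-AS1 lies wholly inside TBL1XR1, starting 190595 bases downstream of its start, and 181 bases of exon are shared on opposite strands. MIR762HG, H1-10-AS1 and MORF4L2-AS1 run across the start of their partners, with 499, 345 and 170 shared exon bases. For H1-10-AS1 the releases disagree: its start lies 885 bases downstream of the H1-10 start in release 29 but only 15 in RefSeq, which would leave little of the 345 shared bases. The table's exon length for H1-10-AS1, 3420 bases, is that of release 29. Other starts differ too. Release 29 starts TBL1XR1 at 177228000, BCL7C at 30894960 and SAMD11 at 923928, all outside their RefSeq windows. Distances given here from release 29 starts therefore do not apply to those windows. NOC2L and SAMD11 meet at their ends and share 378 bases. The shared bases were 21.2% of the exons of TBL1XR1-AS1, 27.5% of MIR762HG, 10.1% of H1-10-AS1, 8.15% of MORF4L2-AS1 and 9.07% of SAMD11. Most exon sequence of each opposed feature therefore lay outside its partner's exons. The partner's whole gene body, introns included, nevertheless held 100% of the exon bases of TBL1XR1-AS1 and 85.7% of those of MIR762HG. It held 10.1% for H1-10-AS1, 19.7% for MORF4L2-AS1 and 9.07% for SAMD11. The exon lengths in the table differ from release 29 for BCL7C (3740 against 4398 bases) and MIR762HG (2162 against 1815), so overlap at that locus is approximate.

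**Figure D1:**
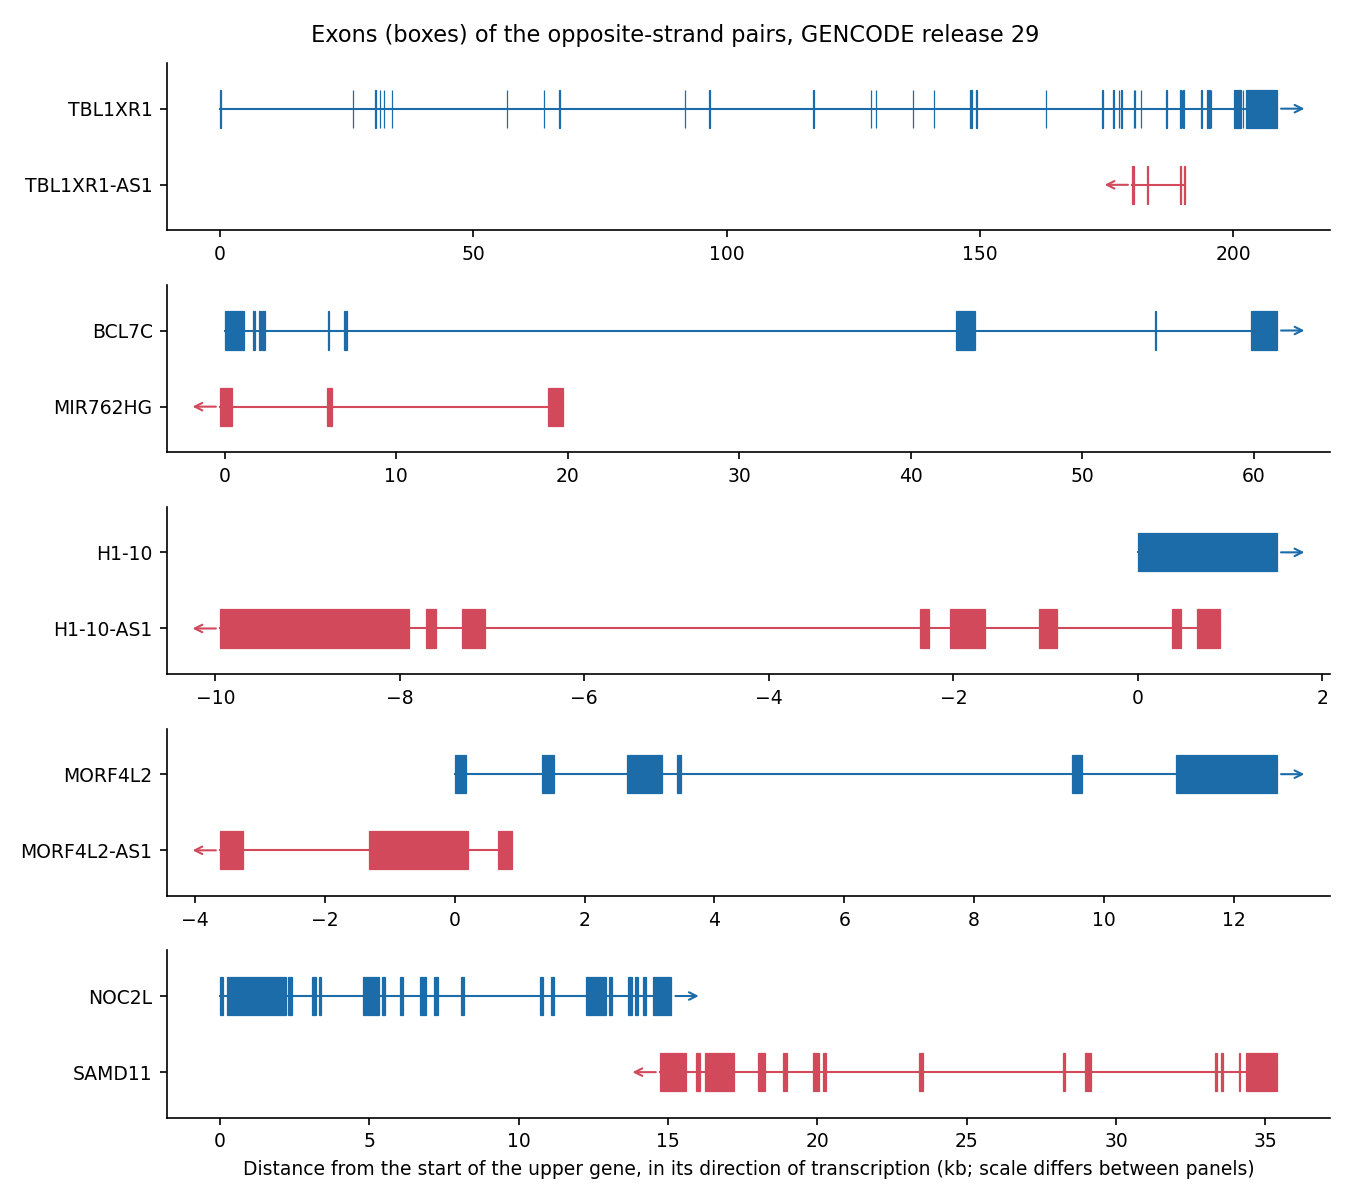
Exons (boxes) of both genes of each pair, plotted by distance in kb from the start of the upper gene in its direction of transcription, with arrows for the direction. TBL1XR1-AS1 lies inside TBL1XR1, the next 3 pairs overlap at their starts, and NOC2L and SAMD11 overlap by 378 bases at their ends.

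All 10 members passed the filter on low counts. In the edgeR quasi-likelihood fit over 9295 features, 0 features were higher and 0 lower at an adjusted p (FDR) under 0.05, so the background was 0% and none of the members was called. With an unadjusted p under 0.05, edgeR found 210 of the 9295 features (2.26%) and limma-voom 238. DESeq2, which gave a p for 22442 features, found 144, and both of these tools called 0 as well. Calls were made when the 669 tested noncoding features opposite coding exons were fitted alone, an alternative added after the data were seen. At an FDR under 0.05 that edgeR fit called 24 higher (3.59%) and 28 lower (4.19%). The 4 noncoding members in it were all among these, TBL1XR1-AS1 higher and the other 3 lower. By CPM, counts per 1000000 scaled by the TMM method, the BHB libraries lay above both controls for 1 member (TBL1XR1-AS1) and below both for 6, while 3 overlapped. Over all tested features the same was seen for 15.1% (above) and 14% (below). The median log2 fold change was −0.44 over the members and −0.03 over all tested features. Since the members were picked on this contrast, nothing is read from any of these counts.

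**Figure D2:**
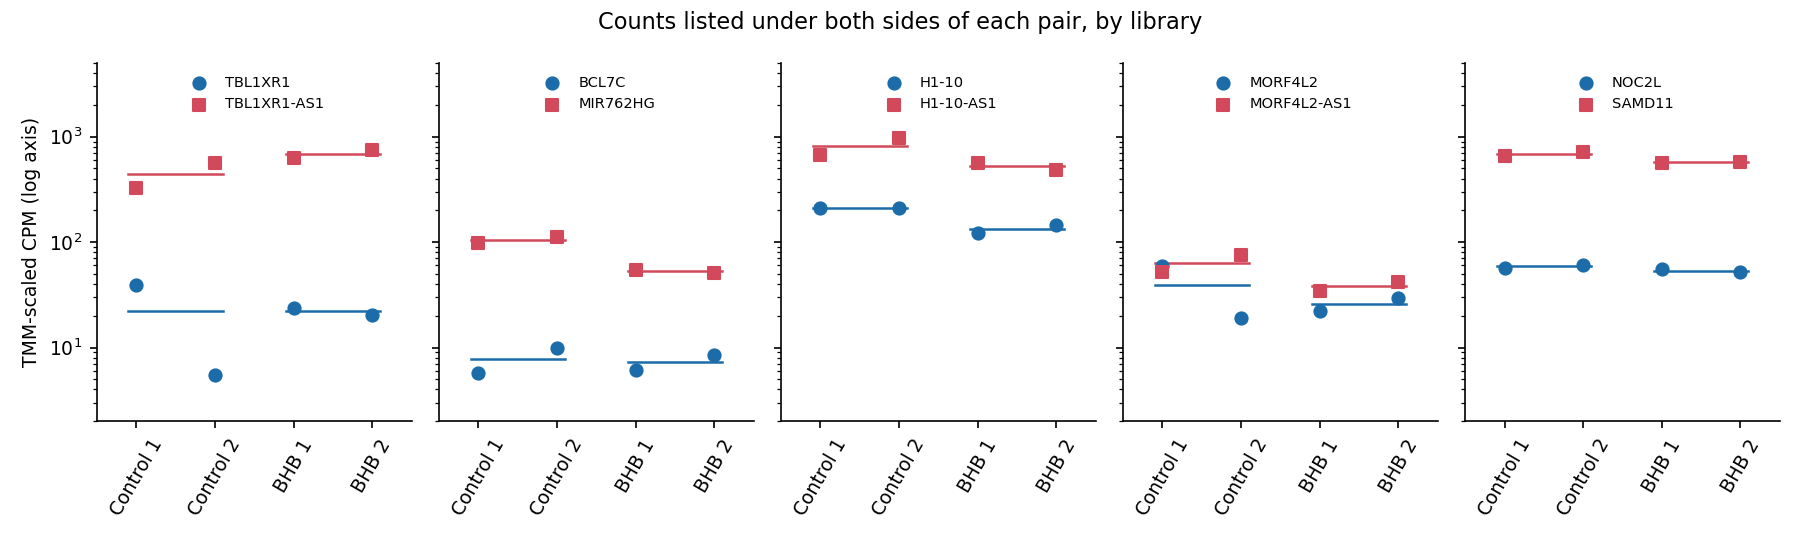
Counts per 1000000 (CPM, TMM-scaled, log axis) listed under both genes of each pair in the 4 libraries, with lines at the means of 2 libraries. TBL1XR1-AS1 is the only member with both BHB libraries above both controls, and the values of TBL1XR1 and MORF4L2 differ most between the controls.

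TBL1XR1 (chromosome 3, 177019340 to 177228000, minus strand) encodes a WD-repeat subunit of the NCoR and SMRT corepressor complexes, which also helps to exchange corepressors for coactivators. Control replicates 1 and 2 had 110 and 11 counts listed under it, and BHB replicates 1 and 2 had 55 and 46. Both BHB libraries lay between the controls, which were 10-fold apart. On the TMM scale the control mean was 22.3 ± 23.7 CPM and the BHB mean 22.1 ± 2.48 CPM (SD, n = 2). The log2 fold change was −0.03 (SE 0.73). The sign turned with the control library, at 1.98 without control replicate 1 and −0.78 without control replicate 2. It also turned to 0.43 with a replicate block and 0.39 by limma-voom.

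TBL1XR1-AS1 (177037405 to 177047923, plus strand), a noncoding feature of 855 exon bases, had far more counts than the gene around it. Control replicates 1 and 2 had 912 and 1118, and BHB replicates 1 and 2 had 1438 and 1671. Both BHB libraries were higher than both controls. The means were 443 ± 168 CPM and 683 ± 82.1 CPM (SD, n = 2), which is 0.63 (SE 0.30) as a log2 fold change. The size rested on the controls, with 0.27 without control replicate 1 and 1.12 without control replicate 2. Per kilobase of exon, the level averaged 658 CPM for TBL1XR1-AS1 and 1.9 CPM for TBL1XR1.

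BCL7C (chromosome 16, 30833626 to 30894960, minus strand) encodes a small subunit of SWI/SNF remodelling complexes. It was the least counted member, with 16 and 20 counts in the controls and 14 and 19 with BHB. These values overlapped, and at this depth a difference between the groups was not detectable (log2 fold change −0.10, SE 0.63). The sign turned without control replicate 2, to 0.39, and without BHB replicate 1, to 0.12.

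MIR762HG (30875222 to 30895220, plus strand), the host gene of a microRNA, had 274 and 225 counts in the controls and 126 and 116 with BHB. Both BHB libraries were lower than both controls, and the libraries within a group were close. The means were 105 ± 11.1 CPM and 53.1 ± 2.34 CPM (SD, n = 2), the largest log2 fold change of the 10 members in size at −0.98 (SE 0.27). It stayed between −1.10 and −0.83 when any 1 library was left out.

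The locus has a further feature that is not a member, the microRNA gene MIR762. It was named after its values were seen, so it gives no independent support for the difference of MIR762HG. Its hairpin (30893903 to 30893985) lies on the strand of MIR762HG, in an intron of it, and opposite the exon at the start of BCL7C, 975 to 1057 bases from that start. The mature sequence is shown with its seed, bases 2 to 8, in capitals, as the sequence within this 83-base feature.
hsa-miR-762: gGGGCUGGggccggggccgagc

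Counts listed under MIR762 were 122 and 70 in the controls and 66 and 60 with BHB, so both BHB libraries were below both controls. By CPM the same was seen for MIR762 and for 14% of all tested features. The fold change was −0.51 on the log2 scale (SE 0.34) and was not called (edgeR, adjusted p = 1). This 83-base feature thus had more counts than the whole exon model of BCL7C. A total RNA library of fragments need not measure the mature microRNA, so these are counts over the hairpin's position. On the strand of BCL7C, the microRNA gene MIR4519, which lies opposite 58 exon bases of MIR762HG, had counts of 7 and 3 in the controls and of 2 and 5 with BHB.

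H1-10 (chromosome 3, 129314771 to 129316277, minus strand) encodes a linker histone made outside S phase too, from a gene of a single exon. It had the most counts of the 5 left-hand genes, with 590 and 422 in the controls and 283 and 326 with BHB. Both BHB libraries were lower than both controls. The controls were close on the TMM scale, at 211 ± 1.7 CPM, against a BHB mean of 134 ± 15.3 CPM (SD, n = 2). The log2 fold change was −0.66 (SE 0.25), and −0.77 to −0.53 with 1 library left out.

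H1-10-AS1 (129315392 to 129326225, plus strand) differed in the same direction as the gene opposite it. Its counts were 1885 and 1945 in the controls and 1286 and 1091 with BHB, with both BHB libraries lower. The means were 823 ± 217 CPM and 521 ± 53 CPM (SD, n = 2), which is −0.66 (SE 0.27) as a log2 fold change. This size rested on the controls, with −0.92 without control replicate 1 and −0.32 without control replicate 2. Neither side of this pair overlapped between the groups. By CPM, 14% of all tested features had both BHB libraries below both controls. As the members were picked on this contrast, nothing is read from this. Per kilobase of exon the levels of the sides were also near each other, at 114 CPM for H1-10 and 197 CPM for H1-10-AS1.

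MORF4L2 (chromosome X, 103675496 to 103688158, minus strand) encodes MRGX, a relative of MRG15 found in acetyltransferase and deacetylase complexes. It had 166 and 38 counts in the controls and 51 and 66 with BHB. As for TBL1XR1, both BHB libraries lay between the controls, which were 4.37-fold apart. The log2 fold change was −0.61 (SE 0.52), with 0.42 without control replicate 1 and −1.16 without control replicate 2. MORF4L2 is marked as a retrogene in the annotation, and its parent copy MORF4L1 is a close relative. How reads that match both were counted is not given in the sources used here, so its counts are uncertain.

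MORF4L2-AS1 (103687284 to 103691772, plus strand) had 145 and 150 counts in the controls and 80 and 94 with BHB, and both BHB libraries were lower. The means were 63.4 ± 16.9 CPM and 38.2 ± 4.89 CPM (SD, n = 2), which is −0.73 (SE 0.32) as a log2 fold change. Without control replicate 1 it was −0.99 and without control replicate 2 it was −0.39. By mean count the sides were the most even of the 5 pairs, although per kilobase of exon those of H1-10 and H1-10-AS1 were closer, and in control replicate 1 MORF4L2 held the larger count.

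NOC2L (chromosome 1, 944204 to 959309, minus strand) encodes a nucleolar protein that inhibits histone acetylation and binds p53. It had 161 and 120 counts in the controls and 128 and 117 with BHB. On the TMM scale this was 58.7 ± 2.18 CPM and 53.7 ± 2.64 CPM (SD, n = 2), which is −0.13 (SE 0.28) as a log2 fold change. The BHB libraries were lower by CPM, by a margin within the standard error.

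SAMD11 (923928 to 944581, plus strand) is a coding gene known from mouse photoreceptors, where its protein works with Polycomb repressive complex 1. Counts listed under it were 1853 and 1419 in the controls and 1310 and 1302 with BHB. Both BHB libraries were lower than both controls. The means were 685 ± 38.6 CPM and 573 ± 5.73 CPM (SD, n = 2), which is −0.26 (SE 0.23) as a log2 fold change. Per kilobase of exon the level averaged 151 CPM for SAMD11 and 10.1 CPM for NOC2L.

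The division of counts between the sides of a locus needs no scaling factor and is given as the percent under the left-hand gene, with 95% Wilson intervals that cover counting error only. For TBL1XR1 the share was 10.8% (9.01 to 12.8) and 0.974% (0.545 to 1.74) in control replicates 1 and 2, and 3.68% (2.84 to 4.76) and 2.68% (2.01 to 3.55) in BHB replicates 1 and 2. For MORF4L2 it was 53.4% (47.8 to 58.8) and 20.2% (15.1 to 26.5) in the controls, and 38.9% (31 to 47.5) and 41.2% (33.9 to 49) with BHB. In both pairs the BHB libraries lay between the controls, whose intervals were far apart.

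The shares of the control libraries were nearer each other at the other loci. For H1-10 the share was 23.8% (22.2 to 25.6) and 17.8% (16.3 to 19.4) in the controls, and 18% (16.2 to 20) and 23% (20.9 to 25.3) with BHB. The groups overlapped, but within each group the intervals of replicates 1 and 2 did not. For NOC2L it was 7.99% (6.89 to 9.26) and 7.8% (6.56 to 9.24) in the controls, and 8.9% (7.54 to 10.5) and 8.25% (6.92 to 9.79) with BHB. Both BHB libraries lay above both controls for NOC2L, but these intervals all overlapped. The means were 7.9 ± 0.139% and 8.57 ± 0.464% (SD, n = 2). For BCL7C it was 5.52% (3.42 to 8.77) and 8.16% (5.35 to 12.3) in the controls, and 10% (6.05 to 16.1) and 14.1% (9.2 to 20.9) with BHB. The means of BCL7C were 6.84 ± 1.87% and 12 ± 2.88% (SD, n = 2), with both BHB libraries above both controls. Between the groups, only the intervals of control replicate 1 and BHB replicate 2 did not overlap. The count of BCL7C itself hardly differed, so the share mostly repeats the lower count of MIR762HG. As the members were picked on this contrast, the share is no separate result. Among 939 coding and noncoding pairs whose sides together averaged 20 counts or more, 11.7% had the coding share above both controls in both BHB libraries and 13.6% below. Among 1513 coding and coding pairs, 29.1% had a share that did not overlap.

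**Figure D3:**
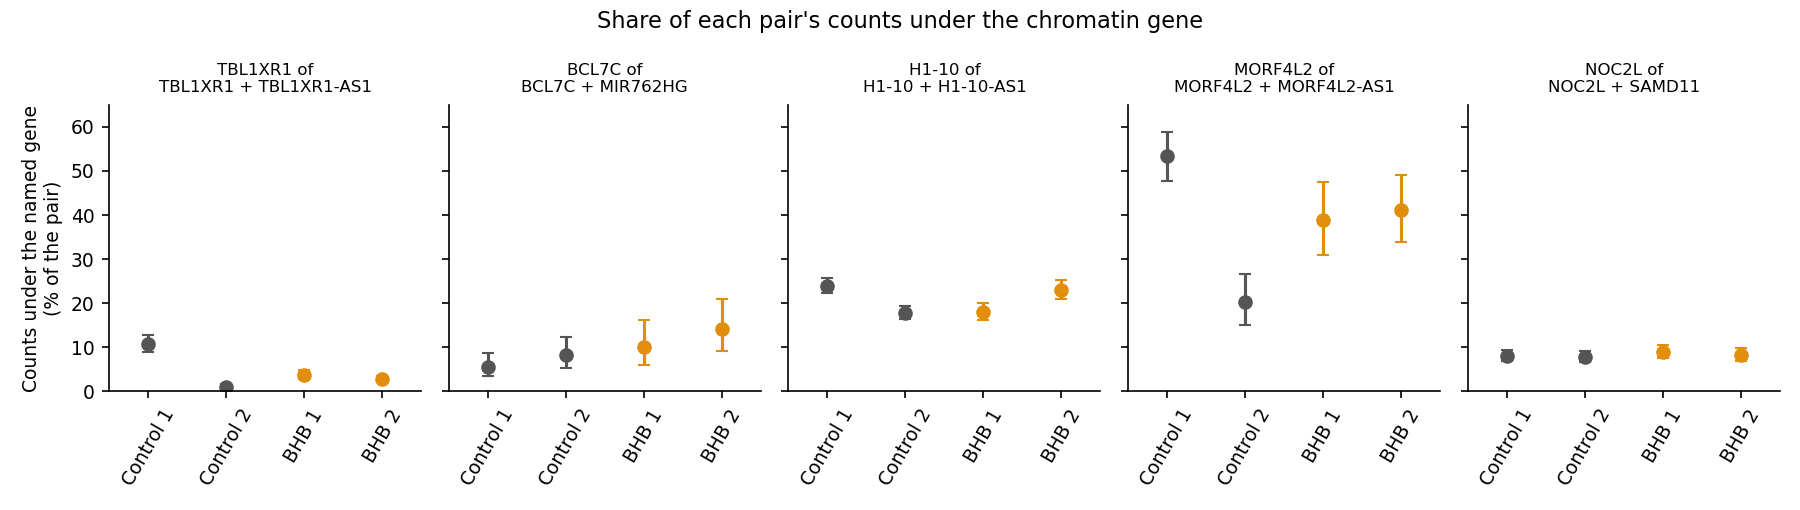
Percent of each pair's counts listed under the chromatin gene, by library, with 95% Wilson intervals (grey, control; orange, BHB). Control replicates 1 and 2 stand apart for TBL1XR1 (10.8% and 0.974%) and MORF4L2 (53.4% and 20.2%), with the BHB libraries between them.

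In all 5 pairs the mean count was higher on the right-hand side, by 23.1 times for TBL1XR1-AS1, 10.7 for MIR762HG, 3.83 for H1-10-AS1, 1.46 for MORF4L2-AS1 and 11.2 for SAMD11. Per kilobase of exon these ratios were 316, 18.6, 1.7, 1.85 and 14.9. More counts on the noncoding side were common among all the coding and noncoding pairs. Of the 939, 62.5% had more counts there and 70.9% more per kilobase, with a median coding share of 17.9%. Per kilobase, 9.69% of these pairs had a lower coding share than TBL1XR1, 43.6% than BCL7C, 67.2% than H1-10 and 66.7% than MORF4L2. Among the coding and coding pairs, the side with more counts held a median of 88.6%, and SAMD11 held 91.8%.

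The difference between the control libraries was set beside that of other features, as a description. A fit that finds differences between groups favours features with close replicates, so for the noncoding members these ratios are not independent of the choice. The log2 ratio of counts, control replicate 1 over 2, had a median of 1.61 over 1946 tested coding genes with no gene on the other strand, and of 0.05 over 666 tested noncoding features opposite exons. Coding genes with a gene opposite lay between these, with medians of 0.64 for the coding side of the coding and noncoding pairs and of 0.32 and 0.29 for the sides of the coding and coding pairs. TBL1XR1 at 3.32 and MORF4L2 at 2.13 were above all of these medians. H1-10 at 0.48 and NOC2L at 0.42 were near those of the paired coding genes, and BCL7C at −0.32 was lower. Of the right-hand genes, MIR762HG at 0.28 and H1-10-AS1 and MORF4L2-AS1 at −0.05 each lay within the quartiles of the noncoding class, −0.14 to 0.33. TBL1XR1-AS1 at −0.29 lay below them, and the coding gene SAMD11 at 0.38 was near the medians of the coding and coding pairs. Between the BHB libraries the 10 members ran from −0.44 to 0.26. All these ratios are of counts not scaled for library size. On the TMM scale the control ratio was 2.82 for TBL1XR1 and 1.63 for MORF4L2. It was −0.82 for BCL7C, −0.79 for TBL1XR1-AS1 and −0.55 for both H1-10-AS1 and MORF4L2-AS1. MIR762HG had −0.22, SAMD11 −0.11, NOC2L −0.08 and H1-10 −0.02. Which members were close between the controls thus depended on the scaling.

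**Figure D4:**
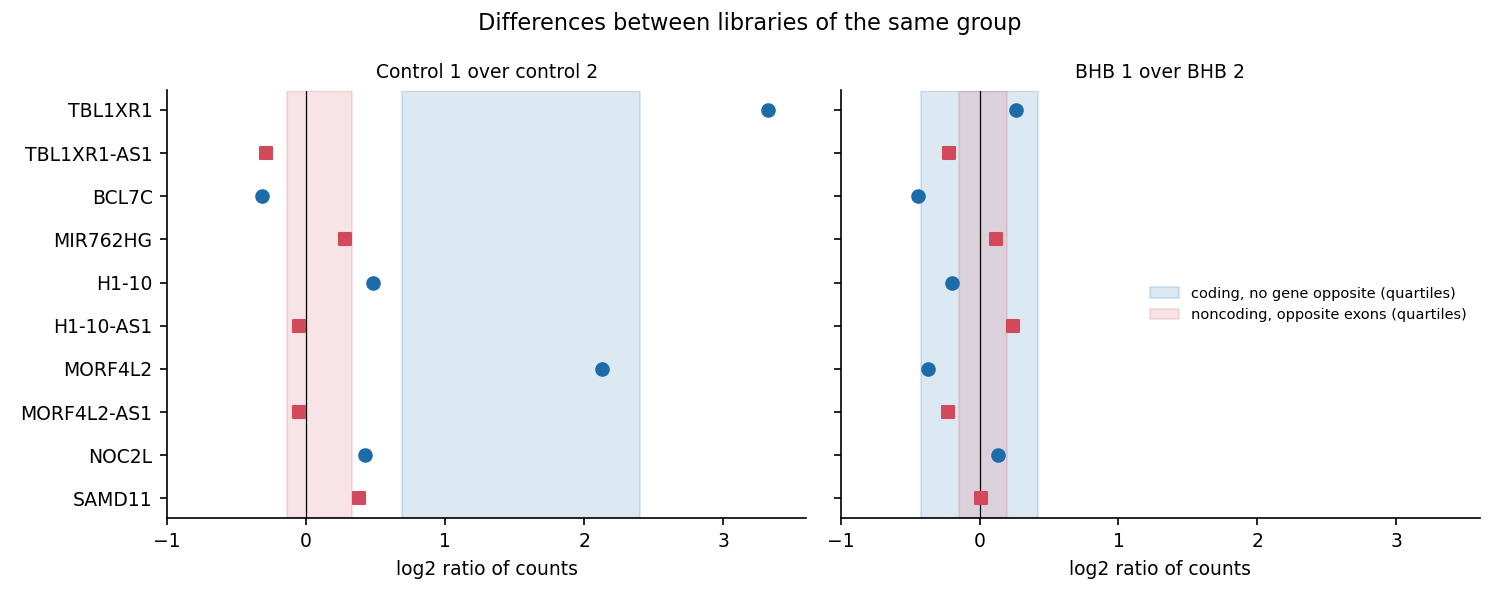
Log2 ratio of counts between libraries of the same group for each member (blue circles, left-hand genes; red squares, opposed genes), with bands for the quartiles of coding genes with no gene opposite (blue) and noncoding features with exons opposite a coding gene (red). By these counts, not scaled for library size, TBL1XR1 (3.32) and MORF4L2 (2.13) differ most between the controls. No member passes 0.44 in size between the BHB libraries. On the TMM scale the control ratios of these genes were 2.82 and 1.63. On that scale BCL7C (−0.82), TBL1XR1-AS1 (−0.79), H1-10-AS1 and MORF4L2-AS1 (both −0.55) differed between the controls too.

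The complexes around the members were followed through 8 lists of 94 other genes, of which 61 were tested. None was called in either direction by edgeR, DESeq2 or limma-voom, and 0 of the 61 had an unadjusted p under 0.05 by edgeR. The log2 fold change was positive in 30 and negative in 31, with a median of −0.01 beside −0.03 over all tested features. Control replicate 1 had more counts than control replicate 2 in 55 of the 61 (90.2%), beside 74.9% of all tested features. By TMM-scaled CPM it was higher in 46 (75.4%), beside 47.6%. The direction of the lists turned with the control library. Without control replicate 1 the medians of all 8 lists were positive, at 0.12 to 0.50, and without control replicate 2 those of 7 were negative, at −0.84 to −0.06. The exception was the linker histones, with 0.32 in both fits, and −0.42 without BHB replicate 2.

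Over 6 tested corepressor subunits the median log2 fold change was 0.05. GPS2, a small subunit of the same complex as TBL1XR1, had counts of 6925 and 7052 in the controls and of 6287 and 5367 with BHB (−0.23, SE 0.26). EIF5A, a translation factor gene whose exons lie opposite, had 182 and 46 counts in the controls and 110 and 88 with BHB. The scaffold gene NCOR1 had 98 and 54 counts in the controls and 83 and 77 with BHB (0.18, SE 0.34).

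SWI/SNF subunits had a median of −0.02 over 20 tested genes of 26. BRD7, a bromodomain subunit, had 532 and 517 counts in the controls and 701 and 711 with BHB (0.47, SE 0.26). PHF10, a subunit of the same form of the complex, had 443 and 454 in the controls and 596 and 633 with BHB (0.49, SE 0.27). C6orf120, whose exons lie opposite PHF10, had 109 and 95 counts in the controls and 41 and 53 with BHB, so its BHB libraries were the lower ones. ADCY7, an adenylyl cyclase gene opposite BRD7, had 64 to 91. For BRD7 and PHF10 the BHB libraries were higher than both controls, yet neither passed the edgeR test over all features (adjusted p = 1). Linker histones had 2 tested genes of 9. H1-2, a somatic linker histone, had 23 and 14 counts in the controls and 7 and 31 with BHB, and its groups overlapped.

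Subunits of the MRG15 and NuA4 complexes had a median of −0.25 over 10 tested genes of 16. RUVBL1, an ATPase, had 4880 and 3870 counts in the controls and 3312 and 3507 with BHB (−0.30, SE 0.23). SEC61A1, a translocon gene opposite it, had 93 to 115. The acetyltransferase gene KAT5 had 970 and 907 counts in the controls and 738 and 761 with BHB (−0.28, SE 0.25), and RNASEH2C opposite it had 973 to 1024. NOC proteins and inhibitors of acetylation had a median of −0.41 over 5 tested genes of 7, with CEBPZ at 0.18 (SE 0.31). ANP32B had 798 and 119 counts in the controls and 181 and 277 with BHB (−0.78, SE 0.61). Both of its BHB libraries thus lay between the controls.

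Polycomb repressive complex 1 had a median of 0.08 over 8 tested genes of 13, and PHC1, a polyhomeotic subunit, had 896 and 978 counts in the controls and 1118 and 990 with BHB (0.19, SE 0.28). M6PR, a mannose 6-phosphate receptor gene opposite PHC1, had 46 to 54. Polycomb repressive complex 2, the complex of EZH2, had −0.09 over 7 tested genes of 12. Its histone-binding subunit gene RBBP4 had 96 and 25 counts in the controls and 77 and 85 with BHB (0.59, SE 0.48), while SYNC, a muscle filament gene opposite it, had 3636 and 3905, and 4334 and 4646. RBBP7 had −0.22 (SE 0.38). Class I deacetylases and SIN3 scaffolds had −0.01 over 3 tested genes of 5, with HDAC1 at 210 and 40 counts in the controls and 64 and 61 with BHB (−0.80, SE 0.55) and SIN3A at −0.01 (SE 0.37).

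The level and the ratio between the controls differed by what lay on the other strand, while the fold changes with BHB were near 0 in every class. These are medians, with no test of the difference between classes. The ratios are of counts not scaled for library size. The 23 tested list genes with opposite exons had a median of 117 counts and a median log2 ratio between the controls of 0.68. The 22 with only a gene body opposite had 29.2 counts and 1.46, and the 16 with nothing opposite had 22.5 counts and 1.68. The median log2 fold change with BHB was 0.02, −0.07 and 0.04 in these classes. The classes also differ in depth, and the part of depth or of the other strand in these ratios was not tested.

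**Figure D5:**
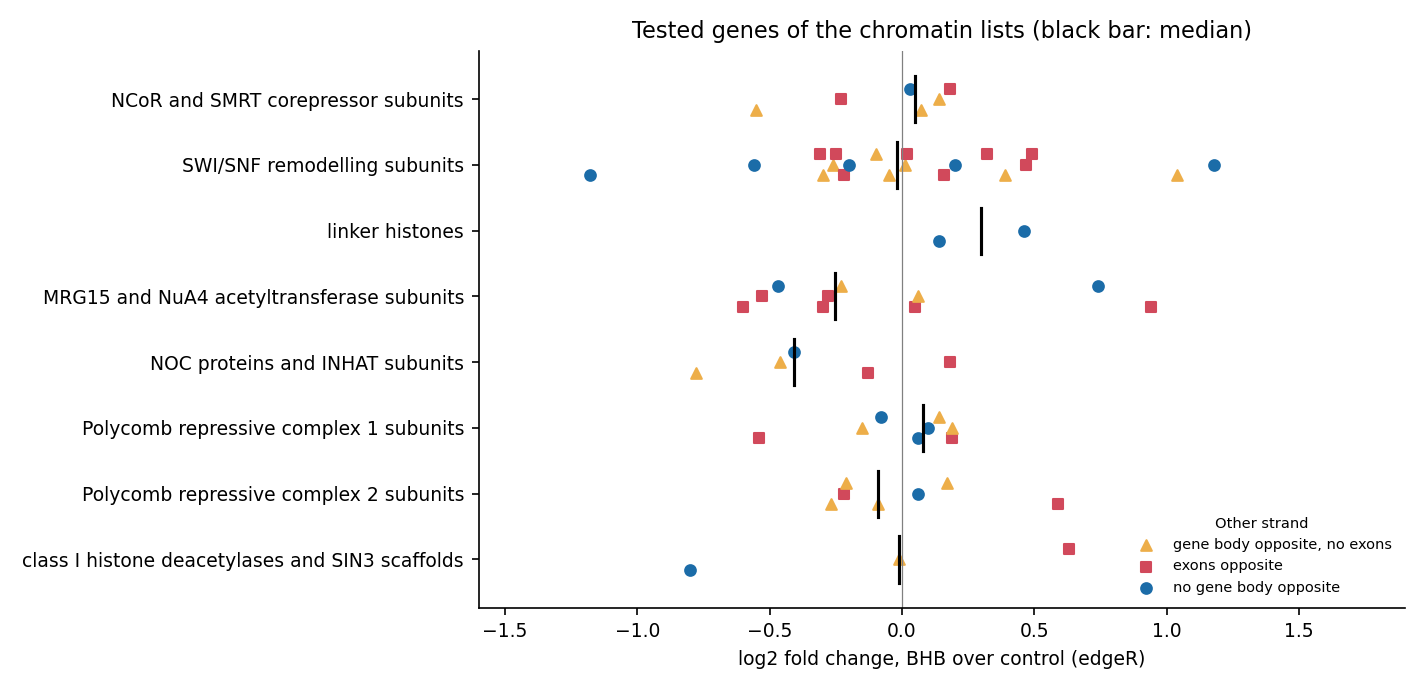
Log2 fold change, BHB over control, of the 61 tested genes in 8 chromatin lists, marked by what lies on the other strand, with black bars at the list medians. Genes lie on both sides of 0 with medians from −0.41 to 0.30, and none passed the edgeR test.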

How the data were processed

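A single table was deposited, with raw counts of 2 control and 2 BHB libraries for 59385 features and the exon length of each. The submitters' processing notes name HISAT2 2.2.1, featureCounts 2.0.3, edgeR, limma and the builds GRCh38 and hg38, without roles. The sources used here do not give the annotation release, the strand setting or how reads with several matches were treated. RNA was total RNA in a stranded kit, per the labels' protocols.

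BHB was compared with control by edgeR 4.0.16 (R 4.3.3): filterByExpr, TMM, robust quasi-likelihood F-test and Benjamini-Hochberg adjusted p over all 9295 tested features. The threshold was an FDR under 0.05. Fold changes are log2, with a standard error from the F statistic. DESeq2 1.42.0 and limma 3.58.1 were run beside it. CPM of members are TMM-scaled, and shares carry 95% Wilson intervals. Replicates were checked for duplicates by chi-square per degree of freedom (12.6 for controls, 2.44 for BHB), and each library was counted once.

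Features were placed on GENCODE release 29 by name or current symbol (40043 placed, 67.4%), of which 59.1% had the same exon length. Opposite-strand exon overlaps came from bedtools 2.31.1. Sequences are from RefSeq tables (GRCh38.p14). The 10 members and the 8 lists were chosen with earlier results of these data known. Besides the members, the rule named the 2 tested genes with the highest mean count in each list, of which 2 are not reported here. MIR762, MIR4519 and the genes opposite list genes were named after their values were seen.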

Additional observations from a re-analysis of the deposited data

How the results depend on the processing

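The counts of 0 higher and 0 lower over all features held with each of 3 alternative scalings and 2 alternative filters, with DESeq2 and limma-voom, and at an FDR under 0.01. They did not hold when opposite-strand noncoding features were fitted alone, an alternative added after the data were seen, which called 24 higher and 28 lower of 669 (15 and 19 at an FDR under 0.01). With a replicate block they were also 0 and 0, with 167 features at an unadjusted p under 0.05. The correlation of the replicate differences between the groups was −0.018, so the numbers do not pair the libraries. With 1 library left out, between 0 and 1042 features were higher and between 0 and 781 lower, and in the chromatin lists 0 to 5 higher and 0 to 9 lower. The upper ends came without control replicate 2. Without control replicate 1 there were 582 and 636 over all features, and 4 and 3 in the lists. The fit without control replicate 1 tested 9960 features and that without control replicate 2 tested 10973, beside 9295 with all libraries. How many list genes were tested in these fits is not given here. The list counts therefore cannot be set beside a background, and nothing is read from them. An arm with 1 library was assumed to vary like the other group.

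Of the members, 7 kept their sign under every scaling, filter, tool, block and left-out library, and TBL1XR1, BCL7C and MORF4L2 did not. Leaving out 1 library moved the BHB minus control share, in percentage points, from −7.58 to 2.21 for TBL1XR1, 3.16 to 7.23 for BCL7C, −3.32 to 2.69 for H1-10, −13.3 to 19.9 for MORF4L2 and 0.35 to 1.01 for NOC2L. Fitting opposite-strand noncoding features alone gave log2 fold changes of 0.67 for TBL1XR1-AS1, −0.99 for MIR762HG, −0.64 for H1-10-AS1 and −0.71 for MORF4L2-AS1. The list medians moved by less than the replicate spread in 88 of 96 comparisons with an alternative. That limit was loose. It took in the MRG15 and NuA4 median, which went from −0.25 to 0.50 without control replicate 1. The 88 comparisons therefore do not show that the medians were stable. Depth limits BCL7C most, with 14 to 20 counts.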
